A study of Mus musculus with 2 samples.

Results

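The genes described here are 9 astroglial genes for transport, cell contact and secretion, listed by name: Slc1a2, Slc1a3, Slc4a4, Apoe, Clu, Cst3, Aqp4, Gja1 and Mlc1. All 9 were rows of a count table of 19144 genes and 4000 barcodes, and they were counted in 3765 barcodes, called cells below, in which 500 or more genes were detected and mitochondrial genes held no more than 10% of the UMIs. The cells came from primary neurospheres of CD1 mouse embryos, floating colonies grown from the lateral ventricle walls of the forebrain in serum-free medium with leukemia inhibitory factor (LIF) at 10 ng/mL. Colonies were counted after 7 to 10 days, and those of at least 50 μm are called primitive neurospheres in the labels. In Drop-seq, the method used, polyadenylated RNA is captured on beads inside droplets and each molecule receives a cell barcode and a unique molecular identifier (UMI). The labels list 2 samples, pNSCs1 and pNSCs2, which form 1 group, primary neurosphere cells grown in LIF, and no second condition. Nothing assigns a barcode to a sample, so the table was read as 1 sample and no test between samples could be made. The labels' protocols also name plating with EFH, an additive they do not explain, and the sources speak of dissociated spheres and also of nuclei.

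In the mature brain, astrocytes clear glutamate from the extracellular space through the transporters encoded by Slc1a3 (GLAST) and Slc1a2 (GLT-1), and move bicarbonate with sodium through the product of Slc4a4 (NBCe1). They are joined by gap junctions of connexin 43, the product of Gja1, and their contacts with vessels hold the water channel of Aqp4 and the membrane protein of Mlc1. They also secrete the lipid carriers apolipoprotein E (Apoe) and clusterin (Clu) and the cysteine protease inhibitor cystatin C (Cst3). Radial glia, progenitors of the embryonic brain, are known to express Slc1a3 and Gja1 before any astrocyte is formed.

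The kept cells held 17395968 UMIs. A cell had between 638 and 54060 UMIs, the median cell 3869 UMIs and 1993 detected genes. Levels are given as UMIs of a gene per 1000000 UMIs of the same cells (CPM), counted at transcript 3′ ends and not divided by transcript length. Radial glia markers were led by Fabp7 at 7166 CPM and Vim at 3522 CPM, with Pax6 the lowest at 20.7 CPM. Markers of mature astrocytes were uneven. Gfap, their intermediate filament, had 10 UMIs in all cells (0.575 CPM), whereas Aldoc stood at 305 CPM and Aldh1l1 at 112 CPM. Ntsr2, S100b, Slc7a10 and Agt were at or below 6.38 CPM. Markers of microglia were near 0: the 4 of 12 listed microglia and macrophage genes that were in the table summed to 25 UMIs. All intervals below are 95% intervals for counting error only, with variation between cells and between animals outside them. 

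The 9 genes spanned a wide range of levels. Cst3 was the most abundant at 873 CPM (exact Poisson interval 859 to 887) and Slc1a3 followed at 582 CPM (571 to 594). Apoe stood at 198 CPM (192 to 205), Gja1 at 140 CPM (135 to 146), Mlc1 at 87.3 CPM (83.0 to 91.8) and Slc4a4 at 75.6 CPM (71.6 to 79.9). These 6 levels had intervals that did not overlap those of their neighbours in the order. Slc1a2 was lower, at 29.6 CPM (27.1 to 32.3), and the rarest were Clu at 5.46 CPM (4.42 to 6.68) and Aqp4 at 2.30 CPM (1.64 to 3.13). Among the 19144 rows, Cst3 was rank 134 by summed UMIs, Slc1a3 rank 223, Apoe rank 1027 and Aqp4 rank 11352. Together the 9 genes made up 1994 CPM. In the GENCODE annotation of GRCm38, Cst3 lies on chromosome 2 at 148871722 to 148875692, Slc1a3 on chromosome 15 at 8634124 to 8710764, Apoe on chromosome 7 at 19696109 to 19699188, Gja1 on chromosome 10 at 56377330 to 56402513, and Slc1a2 on chromosome 2 at 102658659 to 102790784. Slc1a2 and Aqp4 overlap antisense genes, whose reads cannot be told apart from theirs if the counting ignored strand.

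**Figure D1:**
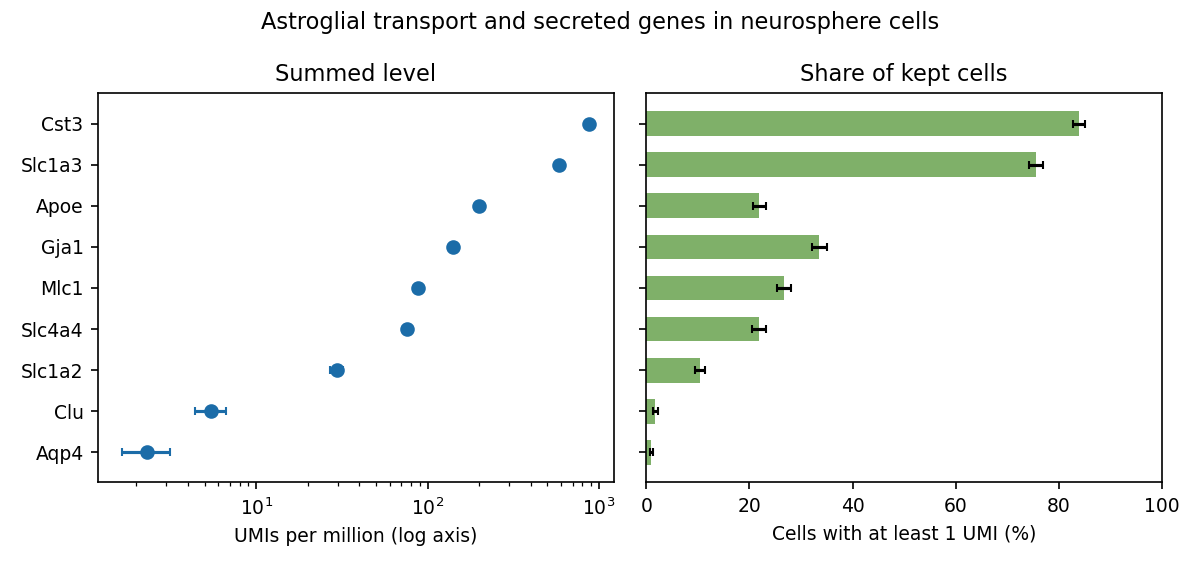
Levels of the 9 genes in the 3765 cells, highest first. Left, the level in CPM on a log axis with exact Poisson 95% intervals, from 873 for Cst3 down to 2.30 for Aqp4. Right, the percent of cells with at least 1 UMI with exact binomial 95% intervals, where Apoe (21.9%) sits below Gja1 (33.6%) although its summed level is higher.

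The share of cells with a UMI did not follow the summed level for Apoe. A Cst3 UMI was found in 83.9% of cells, a Slc1a3 UMI in 75.6%, a Gja1 UMI in 33.6%, a Mlc1 UMI in 26.7%, an Apoe UMI in 21.9%, a Slc4a4 UMI in 21.8% and a Slc1a2 UMI in 10.4%. Apoe thus had more UMIs than Gja1 in fewer cells. Free RNA in droplets can give such UMIs to cells that do not make the transcript, so the shares were set beside those of 31 cells rich in neuron markers, with a median of 1818 UMIs against 3869 in all cells. In those 31 cells a Slc1a3 UMI was seen in 4 (12.9%, exact binomial interval 3.63 to 29.8), a Mlc1 UMI in 3, an Apoe or Gja1 UMI in 1 each, and a Slc4a4 or Aqp4 UMI in 0, which allows a share of up to 9.68%. Cst3 was found in 16 of them, at 357 CPM against 875 CPM in the other cells, a ratio of 0.408 (0.266 to 0.597). The same ratio was 0.352 (0.197 to 0.582) for Slc1a3, 0.207 (0.0427 to 0.606) for Apoe and 0.195 (0.0236 to 0.705) for Gja1. For Mlc1 it was 0.627 (0.171 to 1.61), an interval that held 1. For Slc1a2, with 1 of the 31 cells (3.23%, 0.0816 to 16.7), the interval reached past its share in all cells.

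Clu and Aqp4 were close to the limit of detection. Clu had 95 UMIs in 64 cells (1.70%), 50 of which held a single Clu UMI, and it was found in 4 of the 31 neuron-marker cells (12.9%), a larger share than in all cells, so its share is not read as astroglial expression. Aqp4 had 40 UMIs in 36 cells (0.956%), 33 of which held a single UMI. All 36 cells with Aqp4 also held Cst3, against 83.9% of all cells, and 20 of them (55.6%) held Apoe, against 21.9%. Their median depth was 5177 UMIs, against 3869 UMIs in all cells. Of the 64 cells with Clu, 37 (57.8%) held Apoe, at a median depth of 5818 UMIs. Among cells thinned at random to equal depth, as described below, 10 held Aqp4 and 13 held Clu. Apoe and Aqp4 were found together in 6 cells, where independent shares give 1.04 (ratio 5.78, 2.12 to 12.6). Cst3 and Aqp4 were found together in 5 cells, where independent shares give 5.22 (ratio 0.959, 0.311 to 2.24), no difference beyond counting error. Apoe and Clu were found together in 2 cells, where independent shares give 1.35 (ratio 1.48, 0.180 to 5.36), no difference beyond counting error. The part of depth in the shares at full depth was not tested in any other way.

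Paralogues of the members ranged from below to above them. Among the other Slc1a family genes in the table, Slc1a4, a neutral amino acid transporter, reached 40.5 CPM, above Slc1a2, and Slc1a1, the neuronal glutamate transporter, 1.32 CPM. The other connexins were led by Gjc1 at 48.7 CPM and the other 9 of them in the table were at or below 3.22 CPM. Slc4a7, a sodium-bicarbonate cotransporter, stood at 115 CPM, above Slc4a4. Of the proteins known to bind Mlc1 or Aqp4, Hepacam, the adhesion molecule that brings MLC1 to cell junctions, stood at 62.4 CPM.

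To compare cells at equal depth, each of the 3576 cells with at least 1000 UMIs was thinned at random to 1000 UMIs. At that depth, 763 cells (21.3%) held no UMI of any of the 9 genes, 1432 held 1 of them, 971 held 2, 336 held 3, 63 held 4, 10 held 5 and 1 held 6. Variance over mean, which is 1 for pure counting, was 4.67 for Apoe, rank 7 of the 11057 genes ranked, and 2.50 for Cst3, rank 14. It was 1.24 for Slc1a3, 1.13 for Gja1, 1.11 for Slc4a4, 1.08 for Mlc1 and 1.07 for Slc1a2, beside a median of 1.04 over all ranked genes. Apoe was found in 10.4% of thinned cells, where a Poisson distribution of the same mean gives 18.4%. A small number of cells carried much of it: 72 cells had at least 3 Apoe UMIs, against 4.30 under the Poisson distribution, and they held 359 of the 727 Apoe UMIs (49.4%).

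**Figure D2:**
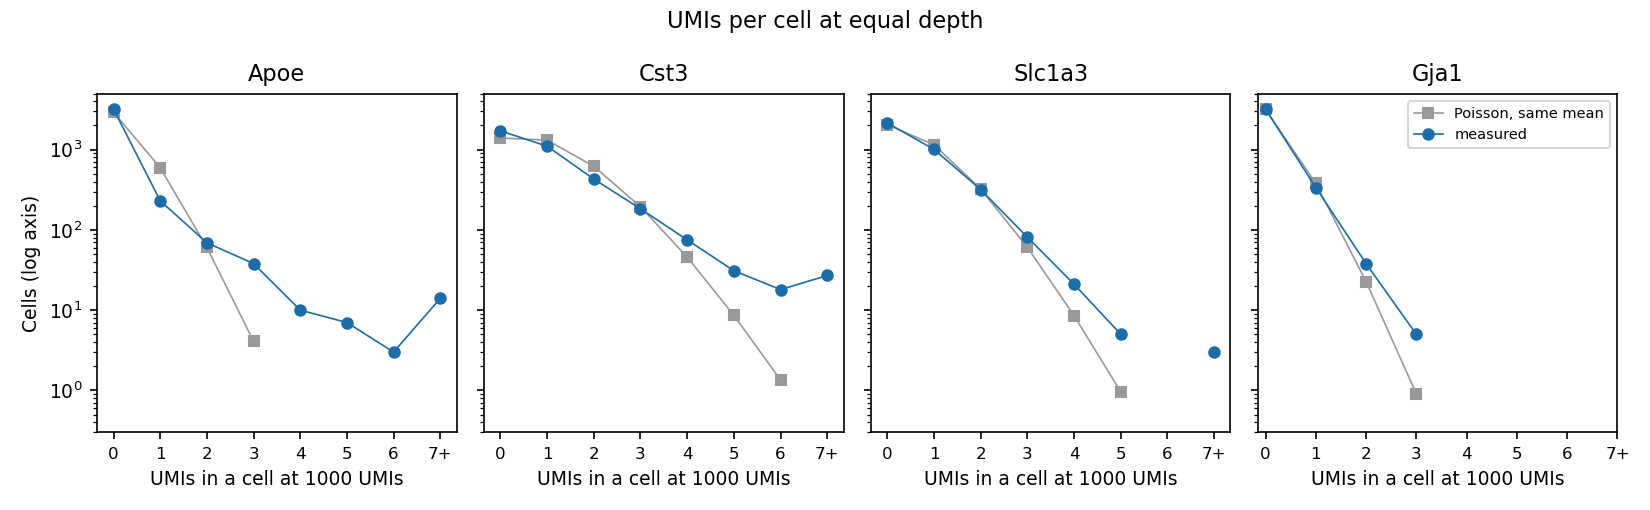
UMIs of Apoe, Cst3, Slc1a3 and Gja1 per cell in 3576 cells thinned to 1000 UMIs. Circles are measured cells and squares the number a Poisson distribution of the same mean gives, on a log axis that leaves out values under 0.3, with cells of 7 or more UMIs in 1 class. Apoe has 14 cells with 7 or more UMIs and Cst3 has 27, while Gja1 has 5 cells with 3 UMIs and none above.

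Most pairs of the 9 genes had low correlations. Of their 36 pairs, 28 had a Pearson r between -0.05 and 0.05 over the 3576 thinned cells, the median was 0.0177 and 3 pairs were above 0.1. These values describe cells of 1 table that share 1 depth, and sparse counts hold r near 0. The highest was that of Apoe with Cst3, at an r of 0.293 and a Spearman rho of 0.131, with a UMI of both in 241 cells where independent shares give 193 (ratio 1.25, 1.09 to 1.41). It was 0.247 without the 2 cells with the most Apoe UMIs at equal depth and 0.175 over cells with no Bnip3 or Vegfa UMI. Apoe with Slc1a2 had an r of 0.108, with both genes in 19 cells where 8.40 were expected (ratio 2.26, 1.36 to 3.53). That r was 0.0470 when cells needed at least 1000 detected genes, a setting that also redrew the random thinning. Apoe with Clu had an r of 0.237, with both genes in 2 of all thinned cells, and an r of -0.00340 without the same 2 Apoe-rich cells, 1 of which held both. The pair of glutamate transporters, Slc1a2 and Slc1a3, had an r of 0.0255, and Gja1 with Slc1a3 an r of -0.000847.

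**Figure D3:**
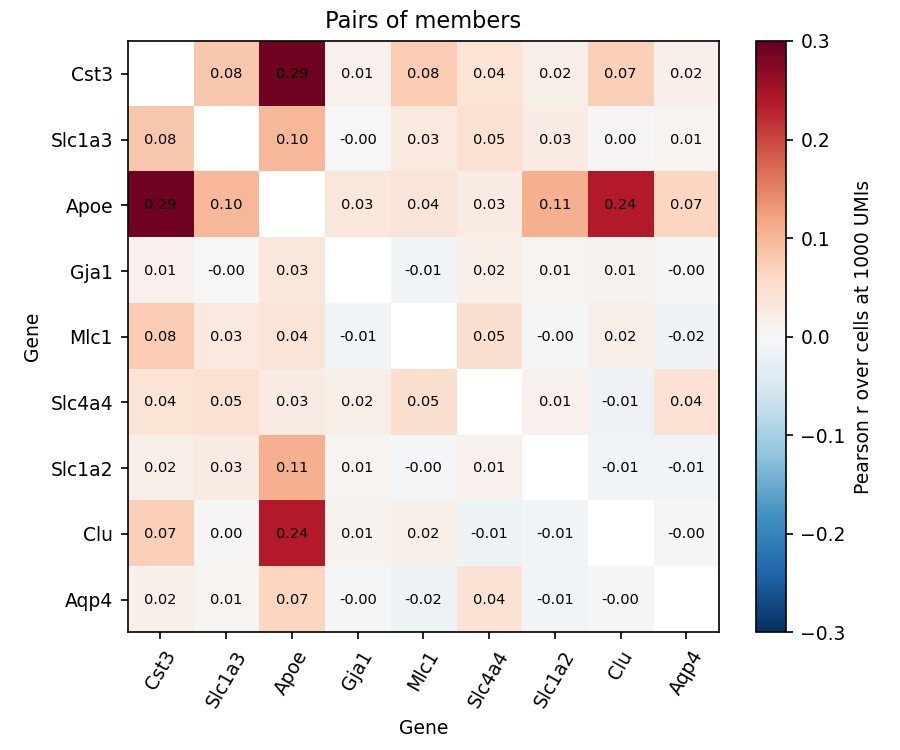
Pearson r of each pair of the 9 genes over 3576 cells thinned to 1000 UMIs, as a heat map with the value printed in each cell and genes ordered by level. Apoe with Cst3 (0.29) and Apoe with Clu (0.24) stand out, and Apoe with Clu was at -0.00340 without 2 cells. Most other pairs lie within 0.05 of 0.

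The genes most like each member over the same cells differed from member to member. For Apoe they were Bnip3 (r = 0.335), which encodes a mitophagy receptor induced by low oxygen, then Cst3, Ppp1r3c (0.273), Ndrg2 (0.236) and Mt1 (0.228), a metallothionein. Cst3 was most like Apoe, Mt1 (0.268), Mt2 (0.221), Mfge8 (0.216) and Ttyh1 (0.205). For Gja1 they were Arl6ip1 (0.108), Pttg1 (0.0938), Hmmr (0.0826), Knstrn (0.0792) and Ckap2 (0.0768), and Pttg1 (securin), Hmmr, Knstrn and Ckap2 are genes of mitosis. Slc1a3 and Mlc1 were each most like Igfbp2, with r of 0.111 and 0.117. The likest gene to the sum of all 9 was Bnip3, at an r of 0.304. The 2 cells with the most Apoe UMIs at equal depth held 33 and 15 of them. The same 2 cells held 4 and 3 Bnip3 UMIs and 15 and 10 Mt1 UMIs at that depth. The r values with Bnip3 and Mt1 were not recomputed without these cells.

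The first comparison asked how the members related to the cell cycle. Cells high in G2/M genes were the 948 cells with at least 13 UMIs of 54 G2/M genes, and low-cycle cells were the 1011 with at most 5 UMIs of the 43 S phase and 54 G2/M genes together. A gene is called past the fold where it has at least 50 UMIs in the 2 classes and its whole exact interval lies above 1.5 or below the inverse of 1.5. Gja1 was higher in the G2/M-high cells, at 212 CPM (200 to 224) against 106 CPM (96.4 to 116) in low-cycle cells, a ratio of 2.0 (1.79 to 2.23). At equal depth, a Gja1 UMI was found in 16.0% of G2/M-high cells (13.8 to 18.5) and 7.91% of low-cycle cells (6.32 to 9.75), and the intervals did not overlap. Apoe was lower, at 142 CPM against 374 CPM, a ratio of 0.380 (0.348 to 0.414), and so was Slc1a2, at 20.1 CPM against 42.1 CPM, a ratio of 0.477 (0.373 to 0.608). Of the 8 members with enough UMIs, 1 was thus past the fold upward and 2 downward, where over the 10105 genes compared 5.91% passed upward and 3.74% downward, 9.65% in all. The call of Slc1a2 was lost under 6 of 13 alternative settings.

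The other members were not past the fold. Cst3 was at 750 CPM in G2/M-high cells and 1134 CPM in low-cycle cells, a ratio of 0.661 (0.634 to 0.689), so its interval reached past the limit of 0.667. Mlc1 had a ratio of 0.730 (0.640 to 0.833) and Clu of 0.419 (0.237 to 0.725). Slc1a3, with a ratio of 0.969 (0.920 to 1.02), and Slc4a4, with 0.989 (0.857 to 1.14), had intervals that held 1. The median ratio of the 8 members was 0.696, beside 0.945 over all genes compared. Along 6 bins of G2/M UMIs, from 0 to 2 up to 21 or more, Gja1 stood at 92.0, 101, 104, 142, 189 and 239 CPM. Apoe stood at 390, 210, 139, 136, 112 and 179 CPM over the same bins, lowest in the bin of 13 to 20 UMIs. In the G2/M-high cells, which fill the bins of 13 to 20 and of 21 or more UMIs, 1 cell held 126 of the 801 Apoe UMIs. The Apoe levels of the bins were not recomputed without that cell. Without the richest cell of each class the Apoe ratio was 0.347. Among cells with no Bnip3 or Vegfa UMI it was 0.500 (0.453 to 0.551). Median depth was 4922 UMIs in G2/M-high cells and 3609 UMIs in low-cycle cells. Immediate early genes, which cell handling can induce, summed to 785 CPM in G2/M-high cells and 1169 CPM in low-cycle cells. Malat1, a nuclear long noncoding RNA, stood at 2754 CPM in G2/M-high cells and 3849 CPM in low-cycle cells, and mitochondrial UMIs made up 2.65% in G2/M-high cells and 3.44% in low-cycle cells. The part of depth and of these signs in the ratios was not tested.

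**Figure D4:**
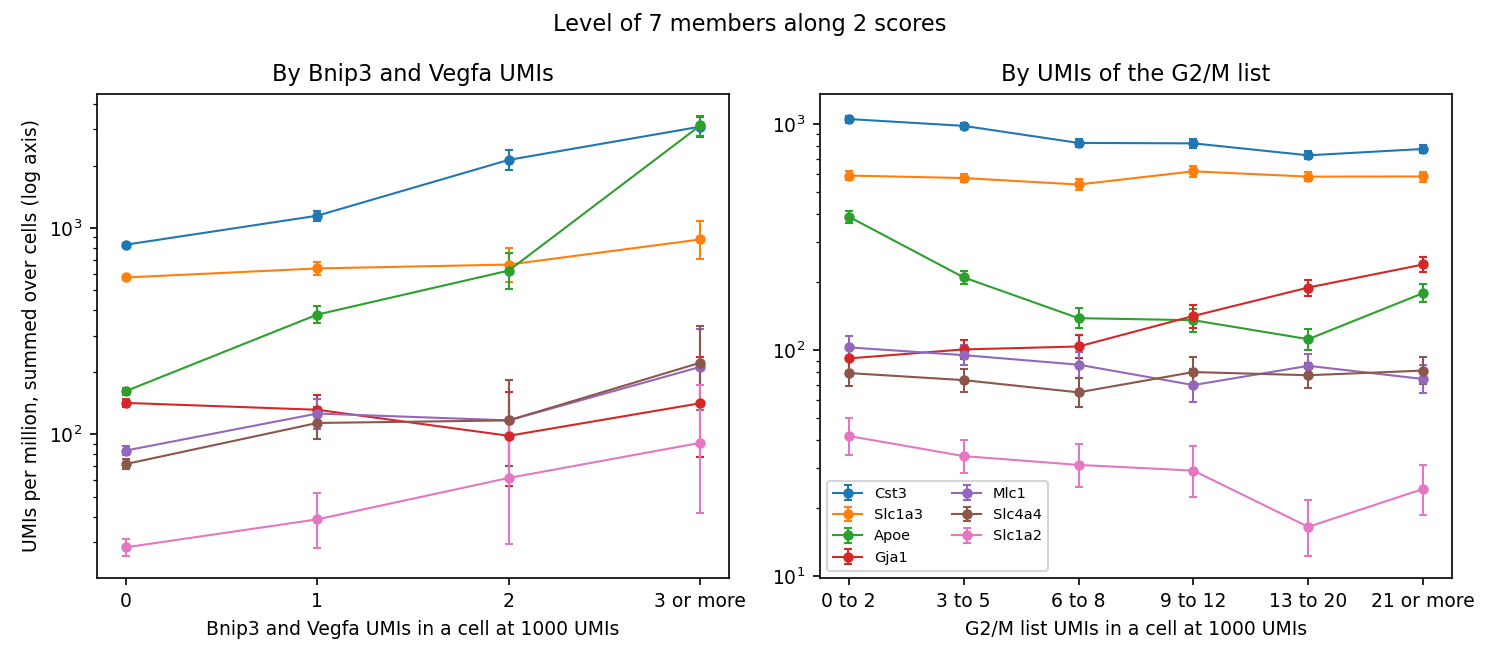
Levels of 7 of the genes (Clu and Aqp4 left out for few UMIs) by the Bnip3 and Vegfa UMIs of a cell (left) and by its G2/M list UMIs (right), both at 1000 UMIs per cell. Points are CPM summed over the cells of a bin at full depth, on a log axis with exact Poisson 95% intervals. Apoe reaches 3132 at 3 or more Bnip3 and Vegfa UMIs, and Gja1 reaches 239 in the top G2/M bin.

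Cells high in S phase genes were the 752 with at least 6 UMIs of those genes and fewer than 13 of the G2/M genes, set against the same low-cycle cells. Apoe was lower here too, at 111 CPM (100 to 122) in S-high cells and 374 CPM (356 to 393) in low-cycle cells, a ratio of 0.296 (0.265 to 0.331). It was the 1 member of 7 past the fold, where 1.75% of 9708 genes were past it downward and 5.32% upward, 7.07% in all. Gja1 had a ratio of 0.827 (0.713 to 0.957), below 1, where the G2/M-high cells had given 2.0. Cst3, Mlc1 and Slc1a2 had ratios of 0.668, 0.710 and 0.744. Gjc1, which encodes connexin 45, was higher in the S-high cells, at 69.5 CPM against 28.4 CPM (ratio 2.45, 1.96 to 3.07), and had a ratio of 1.82 (1.46 to 2.27) in G2/M-high cells. Among cells with no Bnip3 or Vegfa UMI the Apoe ratio was 0.408 (0.361 to 0.461). Because both comparisons share the low-cycle cells, their values are not independent.

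Other astroglial genes had a median ratio of 0.651 in cells high in G2/M genes, beside 0.945 over all genes. Of 41 with enough UMIs, 13 were past the fold downward and 0 upward, where 3.74% of all genes were past it downward. Among the 13 were Ttyh1 (ratio 0.418), Sparc (0.434), Ndrg2 (0.465) and Kcnj10 (0.484), the inward rectifier potassium channel of astrocytes. With S phase genes, 6 of 41 were past the fold downward and 0 upward, where 1.75% of all genes were past it downward. The 16 neuron markers summed to 65.5 CPM in G2/M-high cells and 176 CPM in low-cycle cells, and their part in these ratios was not tested.

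The second comparison set the members against Bnip3 and Vegfa, genes that hypoxia-inducible factor (HIF) is known to induce, Vegfa encoding a vascular growth factor. At equal depth 79 cells held at least 2 UMIs of the pair together, 254 held 1 and 3243 held 0. Apoe stood at 1571 CPM (1423 to 1731) in the cells with at least 2, against 162 CPM (156 to 168) in the cells with 0, a ratio of 9.71 (8.73 to 10.8). An Apoe UMI was found in 38.0% of the cells with at least 2 at equal depth (27.3 to 49.6) and in 9.25% of the cells with 0 (8.28 to 10.3), so both the level and the share of cells differed beyond counting error. Cst3 was higher as well, at 2496 CPM against 829 CPM, a ratio of 3.01 (2.78 to 3.26), with a UMI in 67.1% against 51.4% of cells. Over 0, 1, 2 and 3 or more UMIs of Bnip3 and Vegfa, Apoe stood at 162, 380, 621 and 3132 CPM and Cst3 at 829, 1145, 2134 and 3092 CPM.

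Few cells carried part of these values. The cell with the most Apoe UMIs at equal depth had 3142 UMIs in full, of which 111 were Apoe, 57 Cst3, 14 Clu, 11 Bnip3 and 7 Vegfa. It supplied 111 of the 411 Apoe UMIs of its class and 14 of the 16 Clu UMIs. The next at equal depth had 2419 UMIs in full, of which 30 were Apoe. Without these 2 cells, the Apoe ratio was 6.52 (5.73 to 7.39) and the Cst3 ratio 2.77 (2.55 to 3.01), and Apoe at 3 or more Bnip3 and Vegfa UMIs was 1809 CPM. The Clu ratio was 13.5 (7.32 to 23.4) with all cells and 1.72 (0.205 to 6.45) without those 2, and only 3 of the 79 cells held Clu.

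Among the transporters, Slc1a2 and Slc4a4 were past the fold in the cells with at least 2 Bnip3 and Vegfa UMIs and Slc1a3 was not. Slc1a2 stood at 72.6 CPM (43.7 to 113) against 28.4 CPM (25.8 to 31.1), a ratio of 2.56 (1.53 to 4.05) from 19 UMIs in 14 cells. Slc4a4 stood at 157 CPM (112 to 213) against 71.8 CPM (67.7 to 76.1), a ratio of 2.18 (1.56 to 2.98) from 41 UMIs in 28 cells. Slc1a3 was at 746 CPM against 575 CPM, a ratio of 1.30 (1.12 to 1.49), and Mlc1 at 153 CPM against 83.5 CPM, a ratio of 1.83 (1.30 to 2.51). Gja1 was at 115 CPM against 142 CPM, a ratio of 0.808 (0.544 to 1.16) whose interval held 1. Counting Clu, 5 of 8 members were past the fold upward and 0 downward, where 2.69% of 10911 genes were past it upward and 0.403% downward, 3.1% in all. The median ratio of the 8 was 2.37, beside 0.978 over all genes compared. The calls of Slc1a2 and Slc4a4 lay near the limit: with a second random thinning their ratios were 2.04 (interval from 1.11) and 1.81 (from 1.24), no longer past the fold. With at most 5% mitochondrial UMIs the ratios were 1.51 (0.750 to 2.74) for Slc1a2, 1.34 (0.873 to 1.98) for Slc4a4 and 1.09 (0.928 to 1.27) for Slc1a3, all with intervals that held 1. Without the cell richest in the gene in each class, the ratios were 2.22 (1.26 to 3.65) for Slc1a2 and 2.03 (1.42 to 2.81) for Slc4a4, and 2 of 8 members, Apoe and Cst3, were past the fold.

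**Figure D5:**
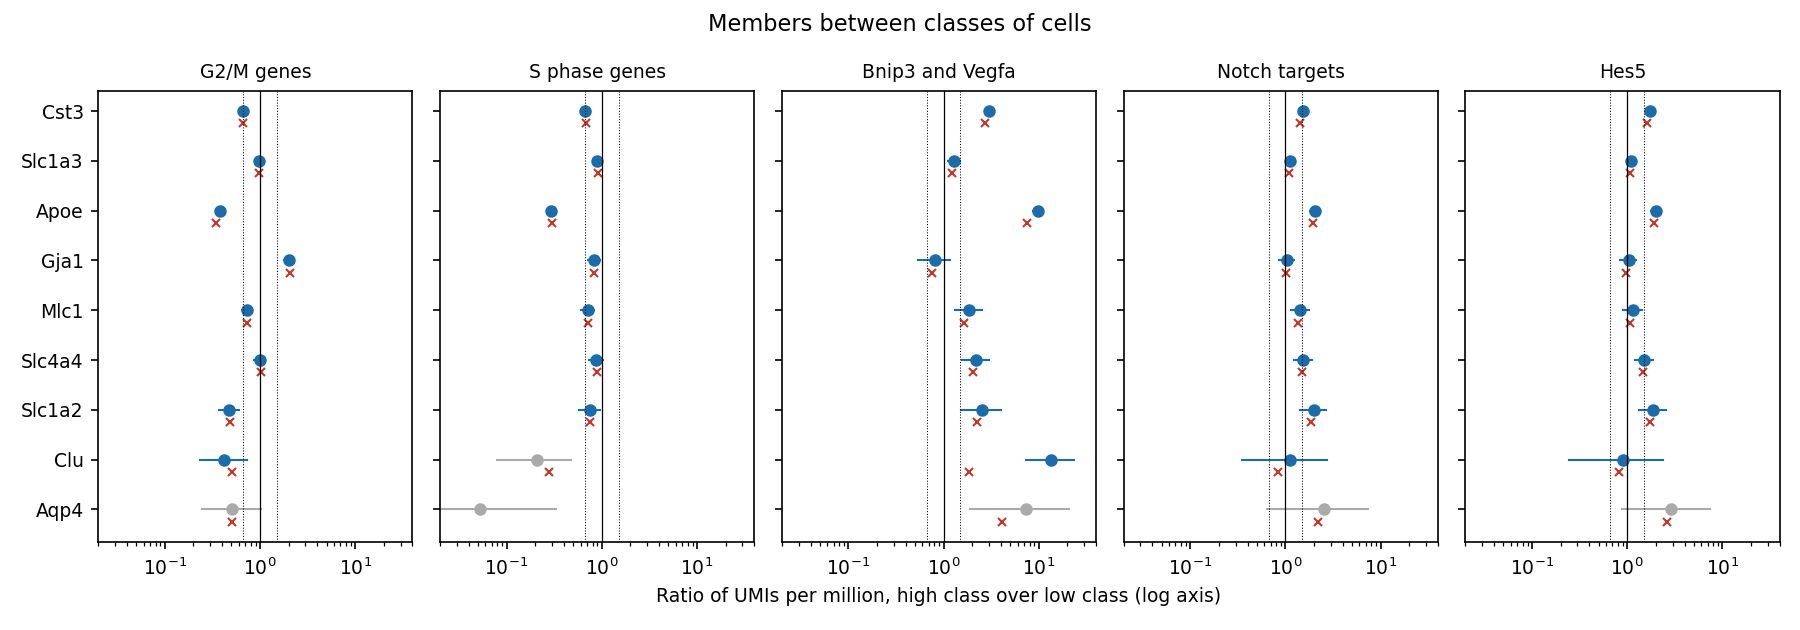
Ratio of CPM, high class over low class, for the 9 genes in 5 comparisons, on a log axis from 0.02 to 40 at which longer intervals end. Circles are ratios with exact 95% intervals (grey where the gene has under 50 UMIs in the 2 classes), crosses the ratio without the cell richest in that gene in each class, and dotted lines 1.5 and its inverse. In the Bnip3 and Vegfa panel Apoe stays far to the right under both readings, while Clu moves from 13.5 to 1.83.

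The 79 cells also differed in other ways. Their median depth was 2941 UMIs, against 4099 UMIs in cells with 0, and Malat1 stood at 7444 CPM against 2945 CPM. Low-cycle cells made up 49.4% of them, against 27.6% of cells with 0, and 21.5% held a Hes5 UMI, against 4.69%. Within low-cycle cells the ratio was 10.4 (9.20 to 11.8) for Apoe and 3.62 (3.28 to 3.98) for Cst3, and within cells with no Hes5 UMI it was 10.0 (8.90 to 11.2) for Apoe and 2.69 (2.45 to 2.96) for Cst3. Over all cells the ratios were 9.71 for Apoe and 3.01 for Cst3. Either class still held the 2 cells with the most Apoe UMIs at equal depth, which had 111 and 30 Apoe UMIs in full. The ratios within the classes were not recomputed without these 2 cells. The part of depth and of Malat1 in the ratios was not tested. Of other cell types' marker lists, the 4 choroid plexus genes summed to 187 CPM in the 79 cells against 29.5 CPM in cells with 0 (ratio 6.35, 4.63 to 8.54), with 1 gene, Otx2, carrying enough UMIs for a call. The 16 neuron genes summed to 180 CPM against 104 CPM (ratio 1.73, 1.26 to 2.31). The 4 microglia genes had 0 UMIs in the 79 cells and 23 UMIs in the cells with 0, too few to compare. The part of such cells in the ratios was not tested.

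Among 43 other astroglial genes with enough UMIs, 13 were past the fold upward and 0 downward in the cells with at least 2 Bnip3 and Vegfa UMIs, where 2.69% of all genes were past it upward and 0.403% downward. They included Ndrg2 (ratio 6.08, 4.61 to 7.91), Ttyh1 (4.19, 3.48 to 5.02) and Mfge8 (3.83, 3.13 to 4.64), a secreted opsonin. Aldoc, an astrocytic glycolytic enzyme, was at 757 CPM against 291 CPM. Hepacam was at 34.4 CPM against 61.8 CPM, a ratio of 0.557 (0.254 to 1.06) whose interval held 1. Of 20 hypoxia genes, 18 of the 19 with enough UMIs were past the fold upward, but that list holds Bnip3 and Vegfa, which chose the cells.

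The bases upstream of the RefSeq transcription starts of Apoe, Gja1 and Bnip3 (GRCm38.p6) are shown because Apoe had a high ratio with Bnip3 and Vegfa that kept its call in all 18 alternative settings and Gja1 had a ratio whose interval held 1. Each run is the 250 bases before the first listed start, 5′ to 3′ on the gene's strand, and capitals mark ACGTG or GCGTG on either strand, cores of the HIF recognition sequence.
Apoe, chr7:19699189-19699438, minus strand: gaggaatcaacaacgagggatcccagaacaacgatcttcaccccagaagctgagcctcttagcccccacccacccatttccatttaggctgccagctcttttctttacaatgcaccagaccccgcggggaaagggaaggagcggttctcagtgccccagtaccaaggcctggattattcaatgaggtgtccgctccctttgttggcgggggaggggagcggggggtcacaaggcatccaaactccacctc
Gja1, chr10:56377050-56377299, plus strand: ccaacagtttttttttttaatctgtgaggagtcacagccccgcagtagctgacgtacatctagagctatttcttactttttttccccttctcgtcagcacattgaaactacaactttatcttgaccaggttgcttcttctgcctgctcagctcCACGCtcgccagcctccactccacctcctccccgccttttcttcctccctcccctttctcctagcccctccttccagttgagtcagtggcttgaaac
Bnip3, chr7:138909507-138909756, minus strand: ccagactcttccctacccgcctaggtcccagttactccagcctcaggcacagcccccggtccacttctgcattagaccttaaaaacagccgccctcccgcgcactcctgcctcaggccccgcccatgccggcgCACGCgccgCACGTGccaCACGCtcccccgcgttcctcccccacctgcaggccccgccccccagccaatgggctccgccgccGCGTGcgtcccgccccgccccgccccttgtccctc
Bnip3 had 2 matches to ACGTG, which share the palindrome CACGTG, and 3 to GCGTG. Of the 2 listed starts of Vegfa, the other gene that chose the cells, 1 had neither motif and 1 had 1 match to each. Gja1 had 1 match to GCGTG, and none of the 3 listed starts of Apoe had either. Promoters were listed for 7 of the 9 members: Slc4a4 had 1 GCGTG at 1 of its 2 starts, and Cst3, Slc1a2, Slc1a3 and Mlc1 had neither motif. Of all 32851 listed promoters, 38.6% held at least 1 of them in the same window. The only window listed for Slc1a2, chr2:102706188-102706437, lies inside the gene, which begins at 102658659 on the plus strand. The bases before that beginning were not searched. Slc1a3 had 1 match to TTCNNNGAA, a STAT recognition pattern present in 7.02% of promoters. None of the 7 members with a listed promoter had GTGGGAA or the full palindrome bound by nuclear factor I. A match here describes letters in a window, not binding.

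The third comparison set the members against Notch target genes. The 188 cells with at least 2 UMIs of Hes1, Hes5, Hey1, Hey2 and Heyl, transcriptional repressors that Notch receptors are known to induce, were set against 2766 cells with 0. Apoe stood at 358 CPM (319 to 401) against 173 CPM (166 to 181), a ratio of 2.07 (1.83 to 2.33), and was the 1 member of 8 past the fold, where 0.392% of 10727 genes were past it upward and 0.0746% downward, 0.466% in all. With cells limited to 5% mitochondrial UMIs its ratio was 0.980 (0.823 to 1.16), an interval that held 1. The difference was thus seen under the 10% limit and not under the 5% limit. Slc1a2 had a ratio of 1.98 (1.42 to 2.69), Slc4a4 of 1.55 (1.23 to 1.92), Cst3 of 1.54 (1.44 to 1.64) and Mlc1 of 1.43 (1.15 to 1.76). These 4 had intervals above 1 that reached below 1.5. Slc1a3 had a ratio of 1.11 (1.01 to 1.21) and Gja1 of 1.03 (0.853 to 1.24). The median ratio of the 8 was 1.48, beside 0.996 over all genes compared.

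With Hes5 alone, which is switched on by Notch in neural progenitors, 191 cells with a UMI at equal depth were set against 3385 with none. Hes5 also counted toward the Notch target class above, where 38.8% of the 188 cells held a Hes5 UMI. The comparisons thus share cells and are not independent. Apoe was at 381 CPM (340 to 426) against 188 CPM (182 to 195), a ratio of 2.02 (1.79 to 2.28), and Cst3 at 1466 CPM (1384 to 1552) against 846 CPM (832 to 860), a ratio of 1.73 (1.63 to 1.84). These 2 of 8 members were past the fold upward, where 0.535% of 11036 genes were past it upward and 0.127% downward, 0.661% in all. At equal depth an Apoe UMI was found in 20.4% against 9.81% of cells and a Cst3 UMI in 63.4% against 51.5%. Slc1a2 had a ratio of 1.87 (1.34 to 2.56) and Slc4a4 of 1.51 (1.20 to 1.87), while Slc1a3 (1.09), Mlc1 (1.15) and Gja1 (1.03) had intervals that held 1. Of the Hes5 cells, 8.90% had at least 2 Bnip3 and Vegfa UMIs, against 1.83% of cells with no Hes5. Among cells with no Bnip3 or Vegfa UMI, the Hes5 ratio was 1.96 (1.69 to 2.27) for Apoe and 1.65 (1.54 to 1.77) for Cst3. In the 17 cells with both a Hes5 UMI and at least 2 Bnip3 and Vegfa UMIs, Cst3 stood at 3793 CPM (3282 to 4361), against 2175 CPM (1980 to 2384) in the 62 with Bnip3 and Vegfa alone, while Apoe stood at 1617 CPM (1290 to 2002) and 1560 CPM (1395 to 1738). A single cell held 78 of the 197 Cst3 UMIs of the 17 cells, and their level without it was not computed.

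The 72 cells with at least 3 Apoe UMIs at equal depth, a limit chosen after the values were seen, were also compared with the 3205 cells with none. Cst3 stood at 2358 CPM against 799 CPM (ratio 2.95, 2.74 to 3.18), Slc1a2 at 92.7 CPM against 25.8 CPM (3.59, 2.39 to 5.21), and Mlc1 at 223 CPM against 80.1 CPM (2.78, 2.16 to 3.53). Slc4a4 had a ratio of 2.29 (1.70 to 3.02), Slc1a3 of 1.88 (1.68 to 2.09) and Gja1 of 1.71 (1.34 to 2.15), which was not past the fold. Clu had a ratio of 15.2, which was 4.06 (1.27 to 10.0) without the 2 cells with the most Apoe UMIs at equal depth. With all cells, 6 of the other 7 members with enough UMIs were past the fold upward, Clu among them, where 2.55% of 10871 genes were past it upward and 0.359% downward, 2.91% in all. Bnip3 had a ratio of 8.99 (7.12 to 11.3) and the metallothioneins Mt1 and Mt2, metal-binding proteins, of 6.16 and 10.1. Of the 72 cells, 54.2% (42.0 to 66.0) were low-cycle and 20.8% (12.2 to 32.0) had at least 2 Bnip3 and Vegfa UMIs, against 26.7% and 1.53% of cells with no Apoe. Their median depth was 3332 UMIs against 4100 UMIs, Malat1 stood at 5192 CPM against 2908 CPM, and immediate early genes summed to 1388 CPM against 939.7 CPM. Choroid plexus, a tissue known for high Apoe, was listed by 4 genes that summed to 121 CPM against 31.4 CPM (ratio 3.84, 2.69 to 5.32), all of it in the Apoe-rich cells from Otx2, a transcription factor also found in other cells. Ttr, Folr1 and Kcnj13, with 1 or 2 UMIs in all cells, and the 4 microglia genes, with 25, were at 0 UMIs in the Apoe-rich cells and too rare to compare. The part of depth, RNA quality and other cell types in these ratios was not tested.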

How the data were processed

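Values in the deposited table are UMI counts, whole numbers that the authors left without normalization, per the file header and values. The submitters' processing notes name build mm10. Which aligner and counting program were used, and how barcodes were chosen, is not given in the sources used here. Depth was planned at 60000 reads per cell, per the labels' protocols. Of 4000 barcodes, 132 failed on detected genes and 148 on mitochondrial UMIs, and 235 were left out for either. Of those kept, 281 end in an unread base. No doublet caller was run here, so any doublets remain among the cells.

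The 2 labelled samples cannot be told apart, so cells of 1 sample were compared, without p-values or standard errors. The 9 members and all gene lists were chosen with earlier results of these data known. Named genes are the members, the genes that set a class, the listed genes, and the 5 genes with the highest r to a member among genes with at least 200 UMIs.

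Each cell was thinned to 1000 UMIs (seed 1), and 189 shallower cells were left out of the classes. A filter that changed the cells at this depth also redrew the thinned counts of other cells. Classes were set on the thinned counts, and levels summed from full counts. Cycle classes were cut at percentiles 75 and 25 of the cells: 85 cells lay at the G2/M cut of 13 UMIs, 234 at the S cut of 6 and 208 at the low-cycle cut of 5. Intervals are exact Poisson for levels, Clopper-Pearson for shares and conditional binomial for ratios, at 95%. A limit for a count of 0 is 3 counts. Neuron-marker cells had at least 3 of 16 neuron genes and at least 2 of their UMIs per 1000, and the condition on UMIs was chosen after the values were seen. Thinning and ratios were tested on simulated counts. Slc1a3 overlaps an unverified transcript on its own strand. The tools were matplotlib 3.10.9, pandas 2.3.3, scipy 1.17.1 and numpy 2.4.6 under Python 3.11.15.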

Additional observations from a re-analysis of the deposited data

Results flagged for a closer look

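The 235 barcodes left out by the filters, which enter no comparison, held 8 of the 9 genes above the level that 3 counts allow. In them Slc1a2 stood at 71.4 CPM (39.1 to 120), against 29.6 in kept cells, and Clu at 25.5 (8.29 to 59.5) from 5 UMIs, against 5.46. Slc1a3 stood at 750.2 (634 to 882), against 582, whereas Cst3 stood at 551 (452 to 665), against 873. Slc4a4 was at 76.6, Apoe at 189, Gja1 at 128 and Mlc1 at 91.9 CPM, each with an interval that held the level of the kept cells. Aqp4 had no UMI there, which allows up to 15.3 CPM.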

How the results depend on the processing

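Counts of members past the fold were recomputed under each alternative, 3 with G2/M genes, 1 with S phase genes, 5 with Bnip3 and Vegfa, 1 with Notch targets and 2 with Hes5 as reported. The Bnip3 and Vegfa count was 3 with at most 5% mitochondrial UMIs, without barcodes that end in an unread base or lie 1 base from a deeper one, without the 5% of cells with the most UMIs, without cells carrying at least 3 neuron markers, at 2000 UMIs, with thinning seed 2, at a fold limit of 2, at 1 or more UMIs and with Vegfa alone. It was 2 with every cell weighing the same and, chosen after seeing the data, without the cell richest in each gene. The S phase count was 2 with no mitochondrial limit, without neuron-marker cells, at 2000 UMIs and with a median split. The Notch count was 2 with at least 1000 genes, no mitochondrial limit, seed 2, without the deepest cells and without neuron-marker cells, and 0 at 5% mitochondrial UMIs, where the Apoe ratio was 0.980, and at a fold limit of 2. The Hes5 count was 1 without neuron-marker cells and 0 at a fold limit of 2, where the G2/M count was 1. The G2/M count was 2 without the unread or near-identical barcodes, with every cell weighing the same and with a median split, and 4 at 2000 UMIs, and the Slc1a2 call was lost in 6 of 13 alternatives. The summed level of 1994 CPM was 1969 without the deepest cells and 2022 on thinned counts. The r of Apoe with Cst3 was 0.349 at 2000 UMIs, 0.194 on a log scale and 0.175 without Bnip3 or Vegfa UMIs. Among members past the fold, 1 had a ratio on the other side of 1 under an alternative, Apoe with Notch targets at 5% mitochondrial UMIs. The interval of that ratio (0.823 to 1.16) held 1, and the causes were not tested. Over 18 alternatives Apoe with Bnip3 and Vegfa ranged from 3.75 to 19.3, Cst3 from 1.62 to 3.73, Slc1a2 from 1.51 to 3.52 (call lost in 13) and Slc4a4 from 1.34 to 3.10 (lost in 12). Over 13 alternatives Gja1 with G2/M genes ranged from 1.71 to 2.37, with its call lost at a fold limit of 2. No paired analysis was possible because the columns carry no sample, and no alternative could leave out a sample. Depth limits Clu and Aqp4, with 95 and 40 UMIs.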
